A study of Mus musculus with 16 samples.

Results

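The Hox cluster genes of the mouse gut were taken as every probe of the non-normalised Illumina bead-array table whose annotated symbol is Hox, a cluster letter from a to d and a number. The rule found 38 of 16593 genes named on the array, with 50 of 25697 probes: 17 probes in the Hoxa, 13 in the Hoxb, 11 in the Hoxc and 9 in the Hoxd cluster. RNA of 16 samples of snap-frozen tumour or mucosa was measured, 1 array each, from mice of a mixed B6/129/Balbc/CD1 background given doxycycline from 6 to 7 weeks of age, the wt mice included. The colon groups were LIN28B/Apcmin tumours (an inducible LIN28B transgene with the Apcmin allele, n = 4), Apcmin tumours (n = 2) and wt mucosa (n = 2). The small intestinal groups were tumours of LIN28B/Apcmin, of LIN28B alone and of Apcmin mice, and wt mucosa (n = 2 each). Mice were 3 months old and tumours were adenomas, except that the LIN28B small intestinal tumours were adenomas or adenocarcinomas of mice aged 8 months, so age and genotype cannot be told apart there. LIN28B binds RNA and stops precursors of the let-7 microRNA family from being matured, and Apcmin truncates Apc, which holds back Wnt signalling. The promoter that drives the LIN28B transgene is not given in the sources used here.

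Hox genes encode homeodomain transcription factors that lie in 4 clusters, each in the order in which its genes are used along the body axis. Low-numbered genes act towards the head and high-numbered ones towards the tail, and in the gut this order is laid down in the embryo, in mesenchyme and epithelium, under control of Cdx factors and retinoic acid, and partly kept in the adult. Polycomb proteins keep the genes silent and Trithorax proteins keep them active. Numbers 1 to 3 are called anterior here, 4 to 8 central and 9 to 13 posterior.

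On 14 arrays 48.3% to 56.5% of all probes had a detection p under 0.05. Replicate 4 of the LIN28B/Apcmin colon (12%) and replicate 1 of the wt small intestine (5.28%) were left out by the rule, so that the wt small intestine is 1 array. On LIN28B/Apcmin colon replicate 3, 1985 signals under 25 were treated as missing, 5 of them from Hox probes. The titles of the small intestinal arrays read D, except LIN28B replicate 2, which reads Jej. The title of LIN28B/Apcmin small intestinal replicate 2 ends in Tum Muc, while its source label calls it a tumour. The number that opens a title is the same for all 3 readable LIN28B/Apcmin colon arrays, for both LIN28B arrays, and for wt colon replicate 2 and the wt small intestinal array. The labels do not say whether a number is an animal, so the p-values measure the spread between these samples, which may be technical. The organ labels went with small intestinal markers, and less clearly with colon markers. Of 4 small intestinal markers, Apoa4 and Gata4, genes of enterocytes, were detected on all 7 small intestinal arrays and on no colon array. Pdx1 was detected on no colon array but was undetected on Apcmin small intestinal replicate 2, and Sis was detected in wt colon. Of 4 colon markers, 2 or 3 were detected in each small intestinal group, and Slc26a3 in neither colon tumour group. In LIN28B/Apcmin tumours 1 of the 4 was called higher in colon (median 0.396, log2 difference). Of 5 epithelial markers, 5 were detected in each group, but each sample is a bulk tissue, in which fewer cells of a type and less RNA per cell cannot be told apart.

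Promoters of 4 Hox genes whose levels differed between groups are shown so that the sequence stands beside the values. They are RefSeq sequences of GRCm38.p6, from 250 bases before to 50 after the gene start, 5′ to 3′ on the gene's strand. Hoxa7 lies at chr6:52218524-52218823 (minus strand), Hoxa9 at chr6:52227321-52227620 (minus), Hoxd4 at chr2:74721728-74722027 (plus) and Hoxd10 at chr2:74691641-74691940 (plus). Capitals mark TTTATG, a core of the motif bound by Cdx factors, searched on both strands.
Hoxa7: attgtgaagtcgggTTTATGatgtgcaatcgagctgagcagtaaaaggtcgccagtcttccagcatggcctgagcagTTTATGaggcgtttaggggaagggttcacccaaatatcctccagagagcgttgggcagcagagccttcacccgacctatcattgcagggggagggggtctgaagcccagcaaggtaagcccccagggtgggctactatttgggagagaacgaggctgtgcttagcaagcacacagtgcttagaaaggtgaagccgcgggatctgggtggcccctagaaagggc
Hoxa9: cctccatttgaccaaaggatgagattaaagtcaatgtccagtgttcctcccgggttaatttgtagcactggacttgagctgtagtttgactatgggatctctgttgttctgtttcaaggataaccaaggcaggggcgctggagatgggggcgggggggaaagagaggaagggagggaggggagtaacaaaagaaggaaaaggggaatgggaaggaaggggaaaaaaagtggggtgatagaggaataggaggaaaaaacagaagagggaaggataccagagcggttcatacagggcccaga
Hoxd4: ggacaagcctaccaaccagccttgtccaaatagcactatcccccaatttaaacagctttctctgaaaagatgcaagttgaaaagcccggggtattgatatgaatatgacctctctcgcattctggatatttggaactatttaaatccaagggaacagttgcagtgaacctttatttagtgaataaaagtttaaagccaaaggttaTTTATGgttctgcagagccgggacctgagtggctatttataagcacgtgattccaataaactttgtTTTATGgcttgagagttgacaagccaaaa
Hoxd10: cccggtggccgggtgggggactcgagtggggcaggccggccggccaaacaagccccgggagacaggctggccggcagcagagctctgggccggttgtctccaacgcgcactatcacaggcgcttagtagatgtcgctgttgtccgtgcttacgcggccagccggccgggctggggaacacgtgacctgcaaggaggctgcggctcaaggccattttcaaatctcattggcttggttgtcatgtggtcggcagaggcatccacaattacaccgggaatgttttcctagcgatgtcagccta
The Hoxa7 and Hoxd4 promoters each hold 2 copies of TTTATG, and those of Hoxa9 and Hoxd10 hold none in this window. Of 24 promoters of 22 Hox genes in the table, 5 (20.8%) held it, against 11.9% of all 32851 promoters of the same length, and 2 (8.33%) held TAATTA, a homeodomain core that does not overlap it, against 5.29%. The Hox promoters had a median GC content of 57.67% and a median CpG observed-to-expected ratio of 0.6263, against 52.67% and 0.3836 over all promoters.

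More Hox probes were detected in wt colon than in any other group, and posterior probes were detected more often on colon than on small intestinal arrays. Of the 50 probes, 20, 17 and 16 were detected on the LIN28B/Apcmin colon arrays, 18 and 21 on the Apcmin colon arrays, and 27 and 25 on the wt colon arrays. In the small intestine 17 and 14 were detected with LIN28B/Apcmin, 15 and 16 with LIN28B, 14 and 17 with Apcmin and 13 in wt. The wt colon counts, 54% and 50% of the Hox probes, lay above the counts of every other group. On the same arrays 56.5% and 55% of all probes were detected. The shares of all probes were 48.3% to 55.7% in LIN28B/Apcmin colon and 51% to 55.3% in Apcmin colon. In the small intestine they were 49.4% to 52.7% with LIN28B/Apcmin, 53.1% to 54% with LIN28B, 52.6% to 55.2% with Apcmin and 53.6% in wt. The same shares apply to the posterior and cluster counts that follow. Of 23 posterior probes, 7 to 9 were detected on LIN28B/Apcmin colon arrays, 9 or 10 on Apcmin colon arrays and 11 or 12 on wt colon arrays, against 2 to 5 on small intestinal arrays. The Hoxd cluster, which patterns the hindgut end, gave 0 to 5 of its 9 probes on LIN28B/Apcmin colon arrays, 3 or 5 on Apcmin colon arrays and 7 or 8 on wt colon arrays, against 1 or 2 on small intestinal arrays. The Hoxa cluster gave 7 to 12 of 17 on colon arrays and 6 to 8 on small intestinal arrays.

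**Figure D1:**
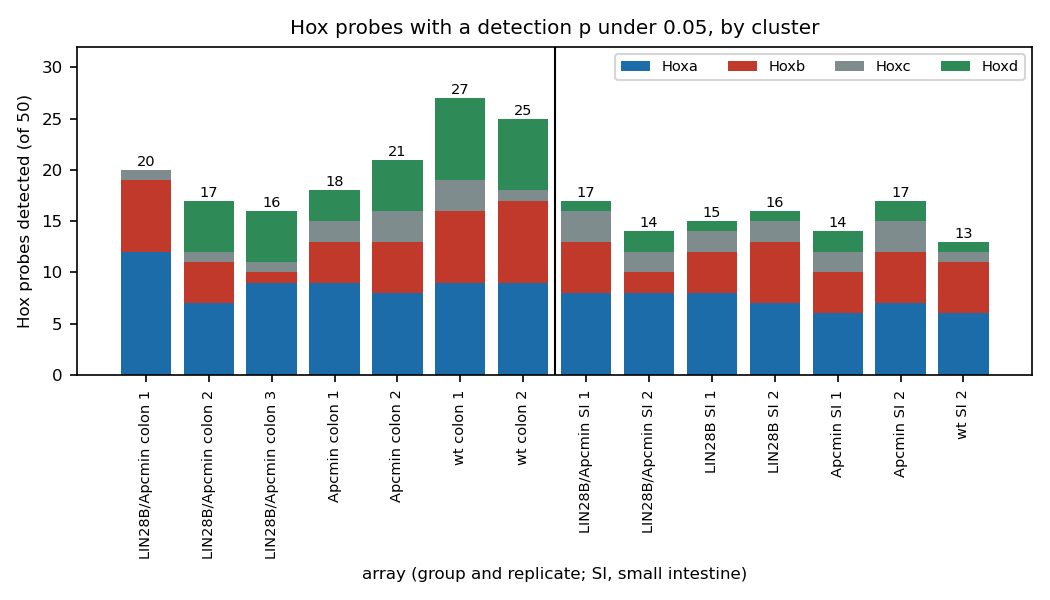
Number of the 50 Hox probes with a detection p under 0.05 on each of 14 arrays (one bar per array), stacked by cluster. The wt colon arrays stand highest at 27 and 25, and the green Hoxd part is missing on LIN28B/Apcmin colon replicate 1.

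Of the 50 probes, 12 were detected on none of the 14 arrays, 6 on 1 and 5 on all 14. Detection on at least 2 arrays left 32 probes of 27 genes for testing, 6 anterior, 12 central and 14 posterior. The 18 others read at most 6.20 (log2 intensity after background correction and quantile normalisation, the scale of all levels below). Of the 32, 9 (28.1%) were detected on at least 2 colon arrays and no small intestinal array, against 4.06% of all 15495 tested probes. The 9 were probes of Hoxa10, Hoxa13, Hoxb3, Hoxb9, Hoxd3, Hoxd8, Hoxd9, Hoxd10 and Hoxd12. They passed the filter through colon arrays alone, so the pattern is a description and no separate result. Those of Hoxa10, Hoxb3 and Hoxd3 were detected on only 2 arrays each, with means of 4.45, 4.51 and 4.50 over all arrays. These means are near background, since the lowest level detected on any array was 4.68. Probes were not matched by level to the other tested probes. The opposite pattern was shown by 0 of the 32, against 2.24% of all probes.

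**Figure D2:**
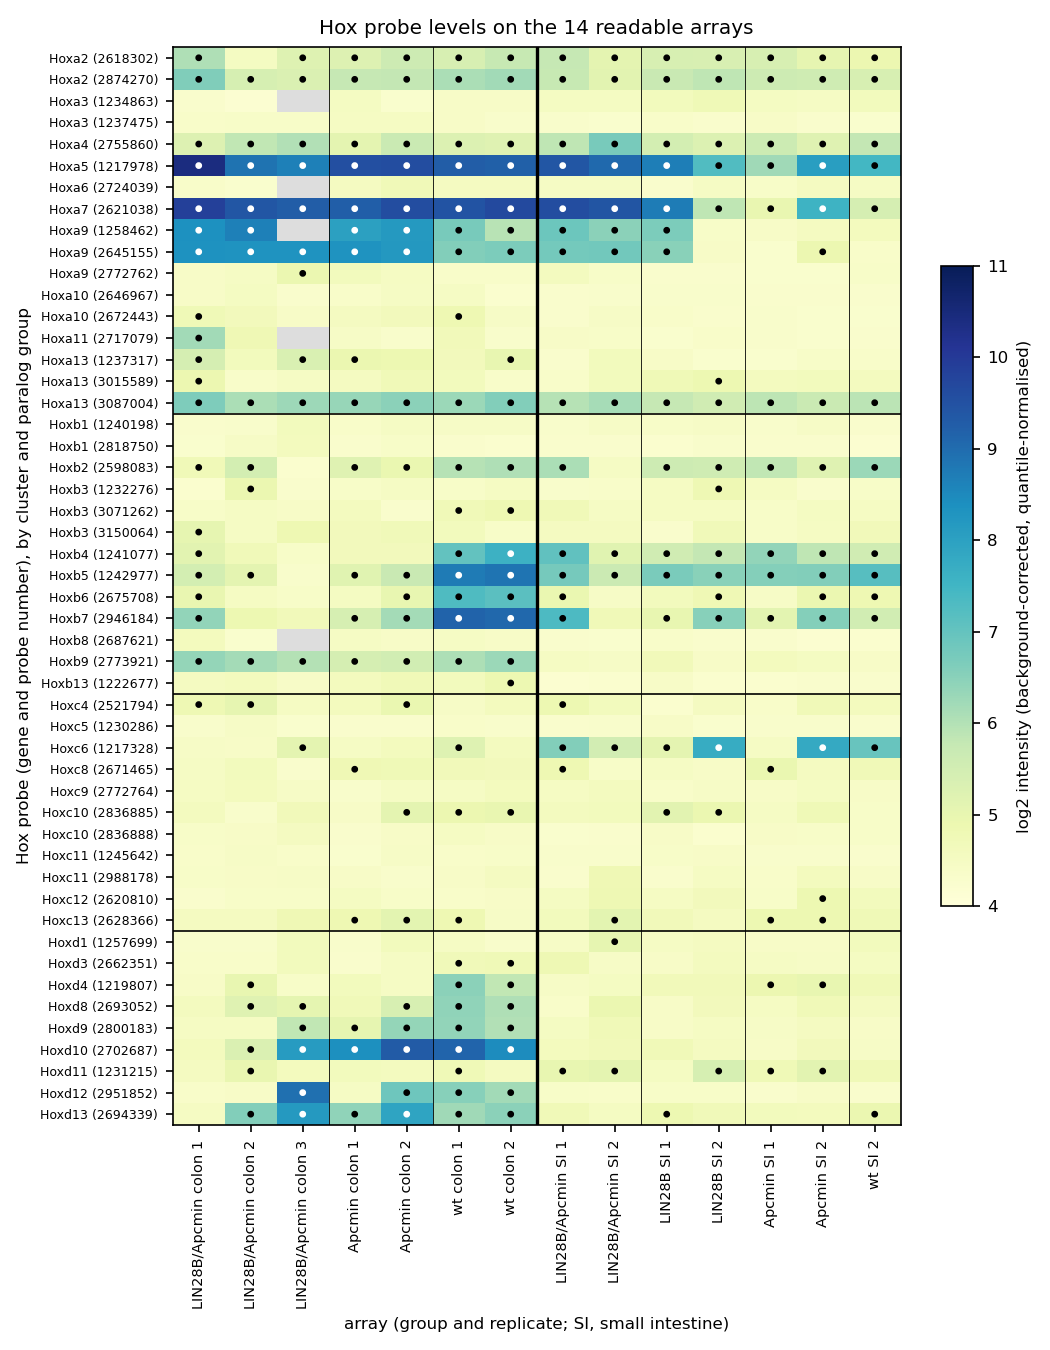
Level of each of the 50 Hox probes (rows, ordered by cluster and number) on 14 arrays (columns, colon left of the thick line), as log2 intensity. Dots mark detected probes and grey cells missing signals. Hoxb9 and Hoxd10 are dark or dotted on colon columns alone, and Hoxb4 to Hoxb7 stand out on the wt colon columns.

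Colon was set against small intestine within each genotype, which asks how the Hox genes differ along the gut in mucosa and in tumours. In wt mucosa 6 of 32 Hox probes were higher in colon, against 2.59% of all probes, and 0 were lower, against 2.76% (limma, Benjamini-Hochberg adjusted p under 0.05 over all 15495 probes). That is 18.8% of the Hox probes against 5.34% of all probes, with a median Hox difference of 0.725 against 0.0512. In LIN28B/Apcmin tumours 2 were higher in colon (7.66% of all probes) and 1 was lower (6.65%). In Apcmin tumours 6 were higher (9.82%) and 0 lower (8.47%). With both tumour genotypes averaged, 7 were higher (14.6%) and 2 lower (12.5%). In all, 28.1% of Hox probes and 27.1% of all probes were called with both tumour genotypes, so this share is near the background. The shares were 18.8% against 18.3% in Apcmin tumours alone and 9.38% against 14.3% in LIN28B/Apcmin tumours alone, near and below the background. All 7 that were higher in the averaged tumours were posterior, of 14 posterior probes tested, and both that were lower were central, of 12. Hoxa9 and Hoxa13 each gave 2 of the 7 probes, and with 1 probe per gene 5 were higher and 2 lower. In LIN28B/Apcmin tumours alone both higher probes were posterior and the lower one central. In Apcmin tumours 4 of the higher probes were posterior, 2 of them of Hoxa9, and 2 were central. In wt mucosa 4 of the 6 higher probes were central and 2 posterior. Whether the classes differ was not tested.

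**Figure D3:**
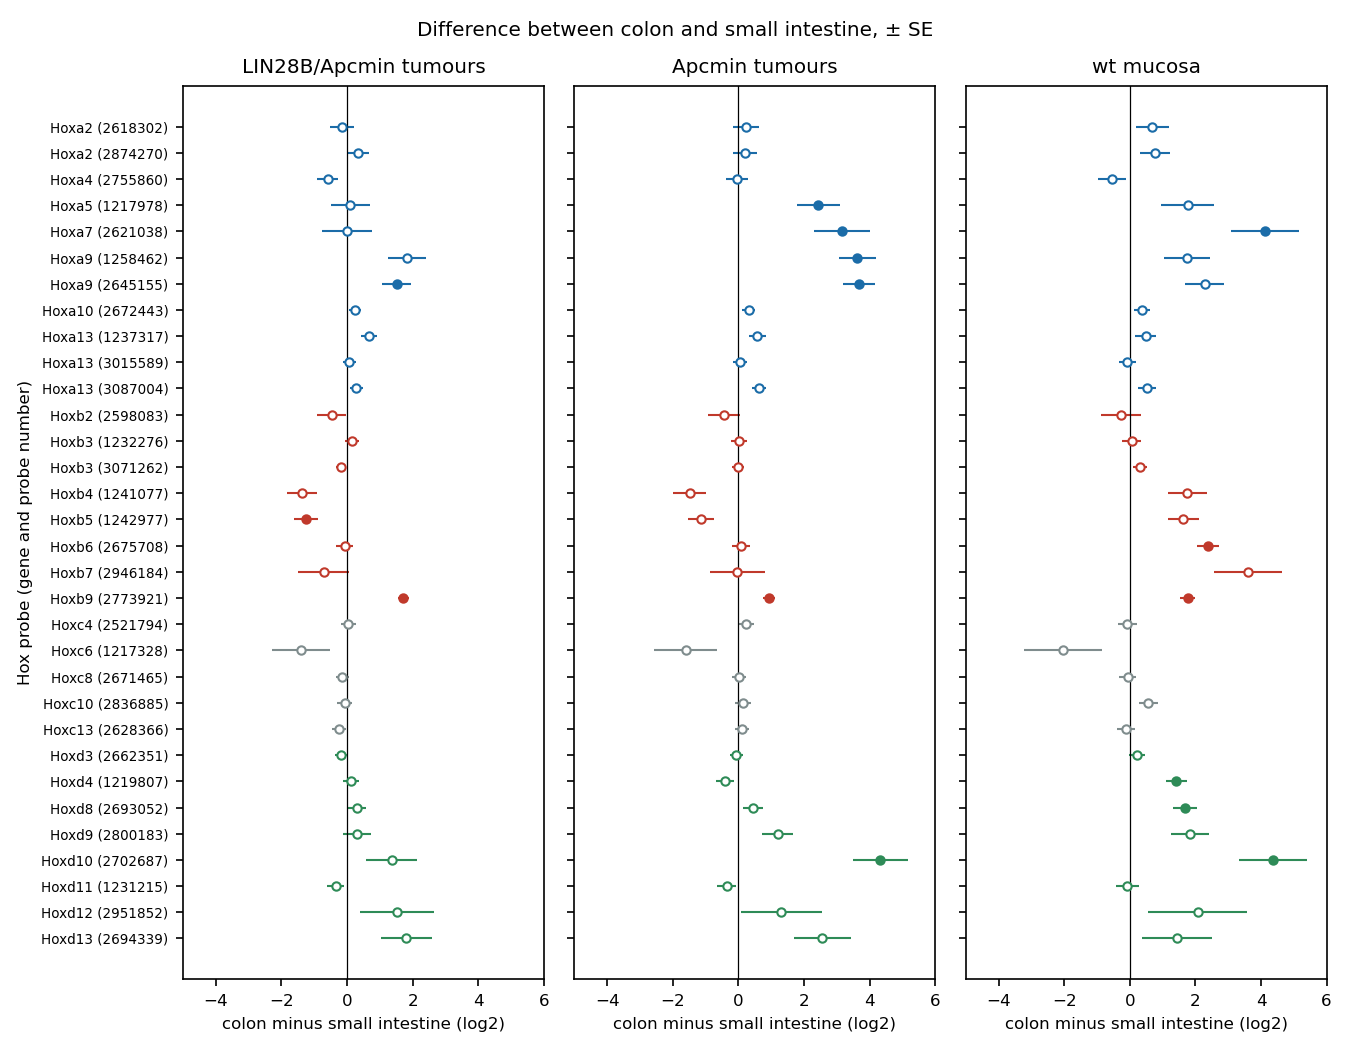
Difference between colon and small intestine (log2, ± SE) of the 32 tested Hox probes in LIN28B/Apcmin tumours, Apcmin tumours and wt mucosa. Filled points passed the test, and colours mark the clusters. Hoxb9 is filled in all 3 panels, and Hoxb4 and Hoxb5 lie right of 0 in wt mucosa and left of 0 in both tumour panels.

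Hoxb9, a posterior gene that patterns the rib cage, was colonic in all 3 genotypes. It read 6.36, 6.17 and 5.99 in LIN28B/Apcmin colon, 5.44 and 5.52 in Apcmin colon and 6.05 and 6.29 in wt colon, against 4.39 to 4.67 on the 7 small intestinal arrays. All 7 colon arrays detected it and no small intestinal array did, so its differences are lower bounds. It was at least 2.4-fold higher in colon in LIN28B/Apcmin tumours (adjusted p = 0.000145), at least 1.63-fold in Apcmin tumours (0.00682) and at least 2.61-fold in wt mucosa (0.00115). The call in Apcmin tumours was lost without Apcmin colon replicate 2 (adjusted p = 0.059).

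Hoxa9, a posterior gene also known from blood progenitors, had 2 informative probes of 3. Probe ILMN_2645155 read 8.33, 8.29 and 8.30 in LIN28B/Apcmin colon, 8.30 and 8.20 in Apcmin colon, and 6.57 and 6.66 in wt colon. In the small intestine it read 6.76 and 6.81 with LIN28B/Apcmin, 6.49 and 4.41 with LIN28B, 4.27 and 4.89 with Apcmin and 4.33 in wt. The tumours of the colon lay above every other group, and within the small intestine both LIN28B/Apcmin tumours and 1 LIN28B tumour lay above the rest. It was higher in colon by 1.52 ± 0.44 (log2 difference, SE) in LIN28B/Apcmin tumours (adjusted p = 0.0428) and by 3.67 ± 0.49 in Apcmin tumours (0.000583), where probe ILMN_1258462 was at least 9.95-fold higher (0.00231). That probe read 8.35 and 8.67 on the LIN28B/Apcmin colon arrays that gave a signal, 6.65 and 4.38 in LIN28B small intestinal tumours and 4.58 in wt small intestine. In wt mucosa the 2.28 ± 0.60 of probe ILMN_2645155 missed the threshold (adjusted p = 0.051). The call in LIN28B/Apcmin tumours was lost without any 1 of 9 arrays, among them both LIN28B/Apcmin small intestinal arrays (adjusted p = 0.127 without replicate 1 and 0.164 without replicate 2).

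Hoxd10, a posterior gene of the lumbar and sacral region, read 4.58, 5.29 and 8.11 in LIN28B/Apcmin colon, 8.38 and 9.29 in Apcmin colon and 9.12 and 8.44 in wt colon. The small intestinal arrays read 4.38 to 4.72, all undetected. Hoxd10 was high in Apcmin and wt colon, while the LIN28B/Apcmin colon tumours ran from undetected to nearly the same level. It was at least 16.7-fold higher in colon in Apcmin tumours (adjusted p = 0.00556) and at least 15.9-fold in wt mucosa (0.0334). In LIN28B/Apcmin tumours the 1.36 ± 0.77 (log2 difference, SE) did not pass (0.268). The wt call was lost without wt colon replicate 1 (adjusted p = 0.167), wt colon replicate 2 (0.0934) or either Apcmin colon array (0.0514), and the Apcmin call without Apcmin colon replicate 2 (0.0556).

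Hoxd13, the last gene of its cluster and a regulator of the hindgut and digits, read 4.48, 6.60 and 8.17 in LIN28B/Apcmin colon, 6.41 and 7.92 in Apcmin colon and 6.22 and 6.48 in wt colon. The small intestinal arrays read 4.50 to 4.92, and 2 of 7 detected it, 1 of LIN28B and the wt array. Over both tumour genotypes it was at least 3.87-fold higher in colon (adjusted p = 0.0177), a call lost without Apcmin colon replicate 2 (0.0799). Hoxd12, named here after its values were seen, read 4.33, 4.39 and 8.93 in LIN28B/Apcmin colon, 4.45 and 6.84 in Apcmin colon and 6.52 and 6.21 in wt colon. Its 7 small intestinal readings, 4.29 to 4.40, were undetected, and no organ difference of it passed. Hoxd genes thus varied widely among tumours of 1 group: LIN28B/Apcmin colon replicate 1 detected 0 of 9 Hoxd probes, but 12 of 17 Hoxa probes.

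Hoxa13, which patterns the hindgut and cloaca, differed little between the organs. Its brightest probe, ILMN_3087004, read 6.64, 6.09 and 6.27 in LIN28B/Apcmin colon, 6.34 and 6.47 in Apcmin colon, 6.29 and 6.59 in wt colon and 5.56 to 6.15 on small intestinal arrays. It was higher in colon by 0.46 ± 0.15 (log2 difference, SE) over both tumour genotypes (adjusted p = 0.0405), and probe ILMN_1237317, detected on 4 colon arrays and no small intestinal one, was at least 1.12-fold higher (0.025). That probe read 5.43, 4.62 and 5.33 in LIN28B/Apcmin colon, 4.93 and 4.86 in Apcmin colon and 4.63 and 4.98 in wt colon, against 4.25 to 4.63 on small intestinal arrays. Both calls are near the threshold: they were lost without Apcmin colon replicate 1 (0.0842 and 0.0836) or replicate 2 (0.124 and 0.0648), Apcmin small intestinal replicate 1 (0.0599 and 0.0685) or LIN28B/Apcmin small intestinal replicate 1 (0.104 and 0.0784). The first was also lost without any 1 of 7 other arrays (0.0518 to 0.101).

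**Figure D4:**
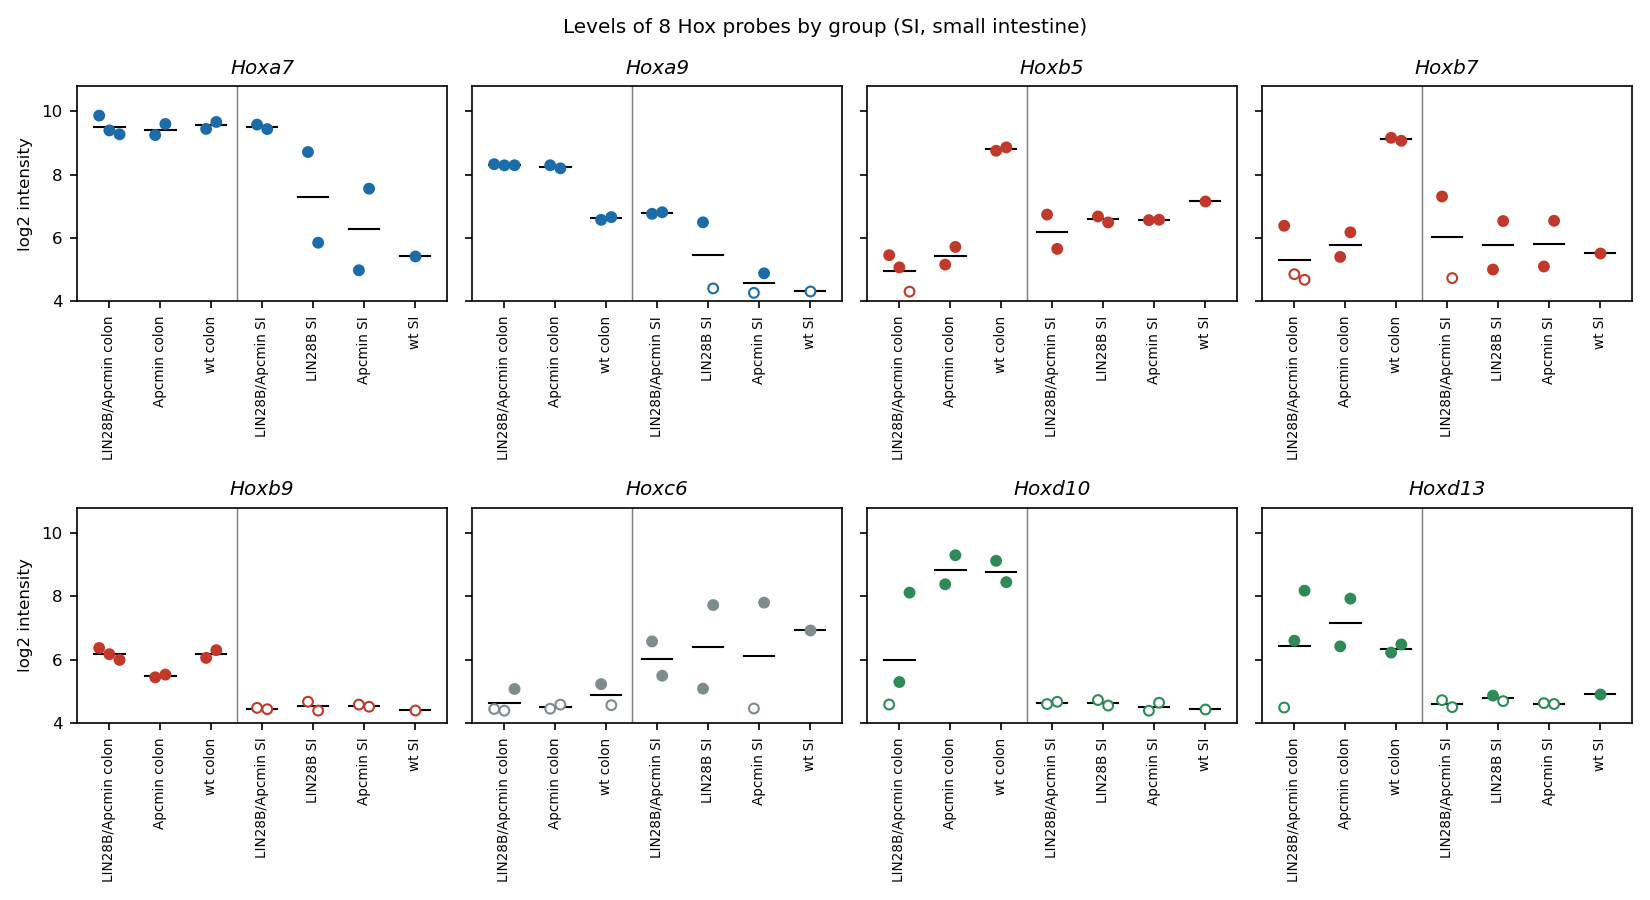
Level (log2 intensity) of 8 Hox probes on each array by group (probe ILMN_2645155 for Hoxa9). Filled points were detected, open points were not, and lines are group means. Hoxb5 and Hoxb7 are highest in wt colon, Hoxa9 in colon tumours, and Hoxb9 and Hoxd10 are open on every small intestinal array.

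Among central genes, Hoxa7, which patterns the trunk, was bright on every colon array: 9.87, 9.40 and 9.27 in LIN28B/Apcmin colon, 9.25 and 9.60 in Apcmin colon and 9.44 and 9.66 in wt colon. In the small intestine it read 9.58 and 9.44 with LIN28B/Apcmin, 8.72 and 5.85 with LIN28B, 4.98 and 7.56 with Apcmin and 5.44 in wt. The LIN28B/Apcmin small intestinal tumours lay within the colon range, and every other small intestinal array lay below it. Colon was higher by 3.16 ± 0.85 (log2 difference, SE) in Apcmin tumours (adjusted p = 0.0253) and by 4.12 ± 1.04 in wt mucosa (0.0431). In LIN28B/Apcmin tumours, the colon and small intestinal means were 9.51 and 9.51, with an SE of 0.77 on their difference. The Apcmin difference was 1.86 without Apcmin small intestinal replicate 1 (adjusted p = 0.196), and was also lost without either Apcmin colon array (0.098 and 0.133). The wt call was lost without wt colon replicate 1 (0.148) or replicate 2 (0.17), and without any 1 of 7 tumour arrays that enter only the estimate of the spread (0.0592 to 0.0702).

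Hoxa5, known from gut and lung morphogenesis, read 10.41, 8.87 and 8.68 in LIN28B/Apcmin colon, 9.55 and 9.60 in Apcmin colon and 9.27 and 9.20 in wt colon. In the small intestine it read 9.40 and 9.04 with LIN28B/Apcmin, 8.70 and 7.26 with LIN28B, 6.23 and 8.05 with Apcmin and 7.47 in wt. It lay within the colon range in both LIN28B/Apcmin small intestinal tumours and in LIN28B replicate 1, and was lowest on Apcmin small intestinal replicate 1. It was higher in colon by 2.43 ± 0.66 (log2 difference, SE) in Apcmin tumours (adjusted p = 0.0265), a call lost without either Apcmin colon array (0.114 and 0.124), with a difference of 1.51 (0.204) without Apcmin small intestinal replicate 1.

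In wt mucosa 3 further central genes were colonic. Hoxb6, which patterns the trunk, read 7.30 and 7.12 in wt colon against 4.83 in wt small intestine, higher in colon by 2.39 ± 0.34 (log2 difference, SE, adjusted p = 0.00197). Hoxd8 read 6.41 and 6.05 in wt colon and was undetected on all 7 small intestinal arrays, at least 2.71-fold higher (0.0225). Hoxd4 read 6.48 and 5.81 in wt colon and an undetected 4.73 in wt small intestine, at least 2.56-fold higher (0.0285). Hoxd8 did not pass without wt colon replicate 1 (0.142) or replicate 2 (0.0574), and Hoxd4 did not without replicate 1 (0.18). The wt colon arrays also had more smooth muscle RNA: the summed intensity of 7 smooth muscle markers was 43097 to 44937 in wt colon and 20448 in wt small intestine, and 1 of the 7 (Tagln) was called higher. The part of smooth muscle in these differences was not tested.

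In tumours Hoxb4 and Hoxb5 ran the other way. Hoxb4, known from blood stem cells, read 5.14, 4.69 and 4.36 in LIN28B/Apcmin colon and 4.64 and 4.64 in Apcmin colon, with 1 of 5 detected, against 7.06 and 5.15 in LIN28B/Apcmin and 6.40 and 5.85 in Apcmin small intestinal tumours. Hoxb5, known from the development of the enteric nervous system, read 5.46, 5.07 and 4.31 in LIN28B/Apcmin colon and 5.16 and 5.72 in Apcmin colon. Its small intestinal levels were 6.74 and 5.66 with LIN28B/Apcmin and 6.56 and 6.58 with Apcmin. Within each genotype the colon values lay below the small intestinal ones for both genes, though for Hoxb4 with LIN28B/Apcmin only by 5.14 against 5.15. Hoxb4 did not pass in LIN28B/Apcmin (adjusted p = 0.0653) or Apcmin tumours alone (0.0594), nor did Hoxb5 in Apcmin tumours alone (0.0689). Over both genotypes colon was lower, with differences of -1.43 ± 0.33 for Hoxb4 (adjusted p = 0.00906) and -1.19 ± 0.27 for Hoxb5 (0.00699; log2 differences, SE). In LIN28B/Apcmin tumours alone Hoxb5 was called (-1.25 ± 0.36, 0.0392), but its difference was -0.72 (adjusted p = 0.25) without LIN28B/Apcmin small intestinal replicate 1. That call was also lost without any 1 of 8 other arrays (adjusted p from 0.0507 to 0.0967). On the other small intestinal arrays Hoxb4 read 5.54 and 5.78 with LIN28B and 5.55 in wt, and Hoxb5 6.68 and 6.49 with LIN28B and 7.18 in wt.

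Markers of other cells moved with the organ in tumours. Over both tumour genotypes 5 of 7 fibroblast markers were higher in colon (median 0.862, log2 difference), and 3 of 7 smooth muscle markers were lower (median -0.504). In Apcmin tumours alone 2 fibroblast markers were higher and 3 smooth muscle markers lower, and in LIN28B/Apcmin tumours 3 fibroblast markers were higher and the lowest adjusted p of a smooth muscle marker was 0.0631, for Acta2. The fibroblast sum was 4744 to 6986 in LIN28B/Apcmin colon against 2569 to 5353 in LIN28B/Apcmin small intestine, and 7462 to 7821 in Apcmin colon against 3543 to 4062 in Apcmin small intestine. The smooth muscle sum was 6216 to 8485 in LIN28B/Apcmin colon against 2064 to 6804 in LIN28B/Apcmin small intestine, and 10984 to 12841 in Apcmin colon against 12353 to 15053 in Apcmin small intestine. The part of these cells in the Hox differences between the tumours of the organs was not tested.

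Next, Apcmin colon tumours were set against wt colon mucosa, and most of the probes that fell were of central genes. Of 32 Hox probes, 7 fell in the tumours, against 6.94% of all probes, and 1 rose, against 6%. In all 25% of the Hox probes and 12.9% of all probes were called. Of the 7 that fell, 6 were central, of 12 central probes, and 1 posterior, of 14. They were Hoxb4, Hoxb5, Hoxb6, Hoxb7, Hoxb9, Hoxd4 and Hoxd8, so 5 of the 8 tested Hoxb probes fell. Neither Hoxa5 (0.34 ± 0.66, log2 difference, SE) nor Hoxa7 (-0.13 ± 0.85) passed.

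Hoxb5 read 5.16 and 5.72 in Apcmin colon tumours, against 8.76 and 8.86 in wt colon, a difference of -3.37 ± 0.39 (log2 difference, SE, adjusted p = 0.000426). Hoxb6 read 4.51 and 4.99 in the tumours, 1 of 2 detected, against 7.30 and 7.12 (-2.46 ± 0.28, 0.000357). Hoxb7, another trunk gene, read 5.40 and 6.18 in the tumours, against 9.16 and 9.07 (-3.33 ± 0.84, 0.0253). For these 3 genes every tumour value lay at least 2 units under the lower wt value.

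Hoxb4 (4.64 and 4.64 against 7.03 and 7.59) and Hoxd4 (4.62 and 4.44 against 6.48 and 5.81) were undetected in both tumours. They were at least 5.63-fold (adjusted p = 0.00539) and at least 2.52-fold (0.00284) lower there. Hoxd4 is known from the patterning of the neck vertebrae. Hoxd8 (4.69 and 5.39 against 6.41 and 6.05; -1.19 ± 0.30, 0.0254) and Hoxb9 (5.44 and 5.52 against 6.05 and 6.29; -0.69 ± 0.19, 0.0369) fell by less.

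Hoxa9 probe ILMN_2645155 was the one that rose, at 8.30 and 8.20 in Apcmin colon tumours, against 6.57 and 6.66 in wt colon (1.63 ± 0.49, log2 difference, SE, adjusted p = 0.0495). Probe ILMN_1258462 read 8.01 and 8.17 against 6.73 and 5.93 (1.76 ± 0.57, 0.073). On both probes the groups did not overlap, but only the first passed.

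Hoxb5, Hoxb6 and Hoxd4 passed whichever array was left out. Without wt colon replicate 1 the calls of Hoxb7 (0.13), Hoxb9 (0.101), Hoxd8 (0.185) and Hoxa9 (0.204) were lost, without wt colon replicate 2 those of Hoxb4 (0.0596), Hoxb7 (0.116), Hoxb9 (0.241), Hoxd8 (0.0734) and Hoxa9 (0.174). Without Apcmin colon replicate 1 Hoxb7 (0.157), Hoxb9 (0.186), Hoxd8 (0.206) and Hoxa9 (0.193) were lost, and without replicate 2 Hoxb7 (0.0799), Hoxb9 (0.136) and Hoxa9 (0.173). Hoxa9 was also lost without any 1 of the 5 LIN28B/Apcmin arrays (0.0613 to 0.067).

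Smooth muscle moved with these falls. Of 7 smooth muscle markers 6 fell in Apcmin colon tumours against wt colon, among them Des (-3.58, adjusted p = 0.000943) and Tagln (-3.57, 0.000297), with a summed intensity of 10984 to 12841 in the tumours against 43097 to 44937 in wt colon. All 7 were still detected in the tumours. The nerve marker Uchl1 fell as well (-1.31, 0.0041), 0 of 7 fibroblast and 0 of 5 epithelial markers were called, and the fibroblast sum was 7462 to 7821 in the tumours against 7156 to 7423 in wt colon. The part of these cells in the Hox falls was not tested.

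**Figure D5:**
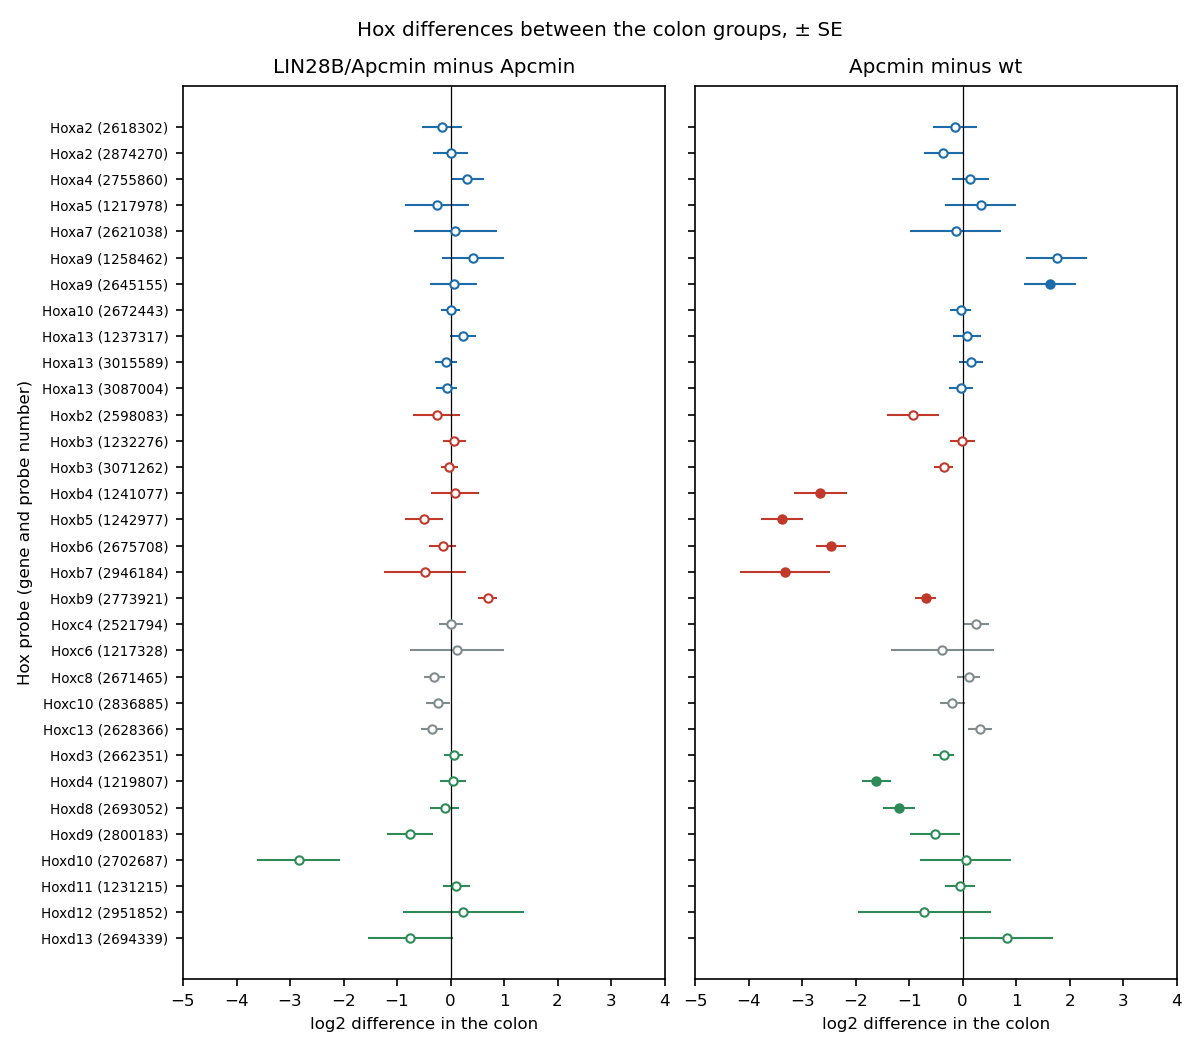
Log2 difference (± SE) of the 32 tested Hox probes between the colon groups: LIN28B/Apcmin minus Apcmin tumours on the left, Apcmin tumours minus wt mucosa on the right. Filled points passed the test. The red Hoxb points from Hoxb4 to Hoxb9 lie left of 0 and filled on the right, and no point is filled on the left.

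The colon effect of Apcmin differed from its small intestinal effect for 1 Hox probe, that of Hoxb6 (interaction -2.31 ± 0.44, log2 difference, SE, adjusted p = 0.0325). That is 1 lower of 32, against 0.652% of all probes, and 0 higher, against 0.458%. In the small intestine Hoxb6 read 4.43 and 4.93 with Apcmin and 4.83 in wt. The lowest detected level on the wt array was 4.79, so a fall of Hoxb6 in the small intestine could not have been seen. The interactions of Hoxb5 (-2.76 ± 0.62, 0.0641), Hoxd4 (-1.82 ± 0.42, 0.0704) and Hoxb4 (-3.24 ± 0.78, 0.0832) were of similar size and did not pass. The Hoxb6 call was lost without wt colon replicate 1 (0.126), wt colon replicate 2 (0.1), Apcmin colon replicate 1 (0.126) or replicate 2 (0.0723), and the wt small intestine is a single array. For Apcmin against wt in the small intestine itself, 0 of 32 Hox probes were called by limma and 0 had an unadjusted p under 0.05, against 0.071% of all probes called. Hoxb6, Hoxd4 and Hoxd8 read under 5 on all 7 small intestinal arrays, at 4.41 to 4.94, 4.41 to 4.99 and 4.33 to 4.91. Hoxb7 read 7.31 and 4.73 with LIN28B/Apcmin, 5.0 and 6.54 with LIN28B, 5.10 and 6.54 with Apcmin and 5.52 in wt small intestine, so that the 2 tumours of each genotype lay more than 1 unit apart.

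LIN28B/Apcmin against Apcmin colon tumours asks what LIN28B adds to the Apcmin tumour. Here 0 of 32 Hox probes were called by limma, against 1.13% of all probes, and 2 had an unadjusted p under 0.05. They were Hoxb9 (0.69 ± 0.17, log2 difference, SE, adjusted p = 0.0964), whose 3 LIN28B/Apcmin values of 5.99 to 6.36 lay above both Apcmin values, and Hoxd10 (-2.84 ± 0.77, 0.122). Hoxd10 varied more between the 3 LIN28B/Apcmin tumours (4.58, 5.29 and 8.11) than between the groups' nearest values, 8.11 and 8.38. LIN28B/Apcmin tumours were not tested against wt colon, and their levels on the 7 probes that fell in Apcmin tumours are a description. Hoxb6 read 4.98, 4.48 and 4.36 on the LIN28B/Apcmin colon arrays, Hoxb7 6.39, 4.86 and 4.68, Hoxd4 4.39, 5.01 and 4.36, and Hoxd8 4.55, 5.18 and 5.05. On these 4 probes and on those of Hoxb4 and Hoxb5 every LIN28B/Apcmin colon value lay below both wt colon values. On the Hoxb9 probe they overlapped, at 5.99 to 6.36 in LIN28B/Apcmin colon and 6.05 and 6.29 in wt colon. The 7 probes were picked for being higher on these same wt colon arrays, so values below them are no separate result.

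LIN28B/Apcmin tumours of the small intestine differed from Apcmin tumours in 1 Hoxa probe. Of 32 probes 1 rose, against 1.88% of all probes, and 0 fell, against 2.29%. In all, 3.12% of Hox probes and 4.17% of all probes were called, so this share is near the background. The call was Hoxa9 probe ILMN_2645155, at 6.76 and 6.81 with LIN28B/Apcmin against 4.27 and 4.89 with Apcmin (2.21 ± 0.49, log2 difference, SE, adjusted p = 0.0328). Next in order were Hoxa7 (9.58 and 9.44 against 4.98 and 7.56; 3.24 ± 0.85, 0.0551), Hoxa9 probe ILMN_1258462 (6.88 and 6.47 against 4.39 and 4.54; at least 3.72-fold, 0.057) and Hoxa5 (9.40 and 9.04 against 6.23 and 8.05; 2.08 ± 0.66, 0.0903), which did not pass. On each of the 4 probes both LIN28B/Apcmin arrays lay above both Apcmin arrays. The 4 were picked by their p-values, so this separation is no separate result. The Hoxa9 call was lost without Apcmin small intestinal replicate 1 (0.169), LIN28B/Apcmin replicate 2 (0.211), or any 1 of the wt or Apcmin colon arrays (0.0566 to 0.0579). Smooth muscle markers went lower there: 4 of 7 fell, with summed intensities of 2064 to 6804 with LIN28B/Apcmin against 12353 to 15053 with Apcmin, and their part in the result was not tested.

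LIN28B small intestinal tumours against wt mucosa gave 0 of 32 Hox calls by limma, against 2.59% of all probes, and 1 unadjusted p under 0.05, for Hoxc10 (0.66 ± 0.29, log2 difference, SE, adjusted p = 0.242). The 2 LIN28B arrays, which share a title number, differed from each other. The array titled D had Hoxa7 at 8.72 and Hoxa9 at 6.49, and the one titled Jej had them at 5.85 and at an undetected 4.41. Across the organs, the effect of LIN28B in Apcmin tumours differed for 0 of 32 probes, against 0.342% of all probes, and 5 had an unadjusted p under 0.05, led by Hoxa9 probe ILMN_2645155 (-2.15 ± 0.66, 0.189).

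Apcmin and LIN28B small intestinal tumours also differed within their genotype in Hoxc6, a central gene of the chest region, and in Pdx1, the ParaHox gene of the duodenum and pancreas. Hoxc6 read 6.57 and 5.49 with LIN28B/Apcmin, 5.08 and 7.72 with LIN28B, 4.45 and 7.79 with Apcmin and 6.93 in wt, and 4.38 to 5.22 on the 7 colon arrays. On the same small intestinal arrays Pdx1 read 6.34 and 6.31 with LIN28B/Apcmin, 8.50 and 5.49 with LIN28B, 10.06 and 4.67 with Apcmin and 8.00 in wt. Apcmin replicate 1 had the highest Pdx1 and an undetected Hoxc6, with the lowest Hoxa5 and Hoxa7, while Apcmin replicate 2 had the highest Hoxc6 and an undetected Pdx1. The LIN28B pair showed the same opposition, with the array titled Jej higher in Hoxc6 and lower in Pdx1. The LIN28B/Apcmin pair did not, with nearly equal Pdx1. The wt array was high in both genes, at 6.93 for Hoxc6 and 8.00 for Pdx1. The place along the small intestine that each tumour came from, beyond D or Jej, is not given in the labels, and its part in the Hox differences was not tested. No organ difference of Hoxc6 passed (adjusted p from 0.113 to 0.324 in the tumour comparisons).

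The other members were dim or flat. Hoxa2, an anterior gene of the hindbrain and pharyngeal arches, read 6.61, 5.42 and 5.30 in LIN28B/Apcmin colon, 5.76 and 5.79 in Apcmin colon, 6.08 and 6.19 in wt colon and 5.14 to 5.84 in the small intestine by probe ILMN_2874270, and 4.50 to 6.04 over all arrays by the other. Hoxa4, a central gene, was detected on all 14 arrays at 5.08 to 6.72. Hoxd11, a posterior gene named after its values were seen, was detected on 2 colon arrays and 5 small intestinal arrays, at 4.53 to 4.97 and 4.51 to 5.41, and its difference over both tumour genotypes was -0.35 ± 0.19 (log2 difference, SE, adjusted p = 0.199). Hoxb2, also of the hindbrain, read 4.72, 5.47 and 4.23 in LIN28B/Apcmin colon, 5.18 and 4.96 in Apcmin colon, 5.96 and 6.05 in wt colon and 4.45 to 6.27 in the small intestine. Hoxd3 was detected in both wt colon samples alone (4.71 and 4.75), and Hoxc13, known from hair, on 3 colon and 3 small intestinal arrays at up to 5.12. The tested probes of Hoxa10, Hoxb3, Hoxc4, Hoxc8 and Hoxc10 and Hoxa13 probe ILMN_3015589 lay between 4.23 and 5.13 on every array. None of the 6 anterior probes and none of the 5 Hoxc probes passed in any of the comparisons made. Hoxd9, named after its values were seen, was detected on 5 of 7 colon arrays (5.02 to 6.40) and no small intestinal one, and did not pass in any comparison.

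Genes that act on or with Hox proteins were set beside the members. Cofactors are the Meis, Pbx and Pknox genes, whose proteins bind DNA with Hox proteins. In Apcmin against wt colon, 1 of 7 cofactors, 1 of 13 Polycomb genes, 1 of 8 Trithorax genes and 0 of 5 other Hox regulators were called, against 12.9% of all probes. Meis1 read 5.63 and 5.87 in Apcmin colon tumours, against 8.31 and 8.02 in wt colon (-2.41, adjusted p = 0.00459), while Cbx2 (1.21, 0.0223) and Ash2l (0.76, 0.04) rose. Between the organs over both tumour genotypes, 3 of 7, 1 of 13, 1 of 8 and 1 of 5 were called, against 27.1% of all probes. Meis1 (-0.99, 0.0288), Meis2 (-1.67, 0.0396), Kdm6a (-0.80, 0.0225) and Nr6a1 (-1.02, 0.00614) were lower in colon, and Pknox1 (0.63, 0.0137) and Phc1 (0.52, 0.0153) were higher. In wt mucosa the lowest adjusted p among these lists, which leave out the ParaHox genes, was 0.257, for Cbx8, and 5.34% of all probes were called. In LIN28B/Apcmin against Apcmin small intestinal tumours Meis1 fell (-2.14, 0.0256) and Rarb, a retinoic acid receptor, rose (2.26, 0.0235), against 4.17% of all probes called. These values are log2 differences.

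Cdx2, the ParaHox gene that specifies intestine and regulates Hox genes, read 9.95, 7.86 and 8.17 in LIN28B/Apcmin colon, 7.18 and 6.92 in Apcmin colon and 10.94 and 11.56 in wt colon. It fell in Apcmin against wt colon (-4.20, adjusted p = 0.000698), while Cdx1 did not pass there. Between the organs in wt mucosa, 1 of 4 tested ParaHox genes was called higher in colon, against 2.59% of all probes. Cdx1 read 10.58 and 10.93 in wt colon and 8.86 in wt small intestine. On small intestinal arrays Cdx2 read 10.45 and 10.85 with LIN28B/Apcmin, 10.49 and 10.85 with Apcmin and 10.59 in wt, and it was lower in colon than in small intestinal tumours (-2.81 over both genotypes, 0.000259). Whether a Hox probe also binds the transcript of a paralog was not tested.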

How the data were processed

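RNA of 16 samples was labelled to biotin cRNA and hybridised to Illumina mouse bead arrays, per the labels' protocols. The deposited intensity of each probe is the authors' average bead signal, neither background-corrected nor normalised between arrays. The authors also deposited a detection p-value per probe on every array, with software not given in the sources used here. The deposited series matrix held linear transforms of the same intensity values (Pearson correlation 1 on every array), with scale and centring unknown and column medians from 12 to 88.3, and was used as an alternative. Of 25697 probes 23978 named 1 gene, by the array's annotation. Another 2 lines held no probe identifier and were not read.

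Arrays with under 20% of probes detected were left out and signals under 25 were set to missing. Background was corrected with limma nec (offset 16, detection p-values), followed by log2 and quantile normalisation. The 15495 probes with 1 gene and a detection p under 0.05 on at least 2 of 14 arrays were fitted with lmFit and eBayes on 7 group means (7 residual degrees of freedom). Each comparison was tested two-sided, with Benjamini-Hochberg adjustment over all probes and a threshold of 0.05. A probe undetected on every array of 1 group has a bound, with each dim array set to the higher of its own level and the lowest level detected on that array. No block was used, since the consensus correlation over title numbers was -0.0543, and the labels do not say that a number is an animal. Replicate numbers were not used as pairs, since same-numbered samples of the tumour groups carry different title numbers in colon and small intestine.

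The members and gene lists were chosen with earlier results of these data known. Levels were given by array, or by their range over an organ where it is narrow or a repeat, for Hox probes called in at least 1 comparison and for the probe of highest mean in each class and cluster, and the rest by range. The number of arrays limits the precision: on simulated data of 14149 probes, 12% (wt organ comparison) to 68% (both tumour genotypes) of 2-fold changes and 75% to 95% of 4-fold changes were recovered. The simulation changed few probes, with independent normal noise, no missing values and no detection floor. Its rates need not hold for Hox probes near background. Alternatives were all 16 arrays, low signals kept, median scaling, offset 50, no detection filter, 1 probe per gene, the title number as a block or averaged, the series matrix, and each array left out. The fits ran in R 4.3.3 with limma 3.58.1 and the data.table package (1.17.8), and the figures in Python 3.11 with pandas 2.3.3 and matplotlib 3.10.9.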

Additional observations from a re-analysis of the deposited data

Results flagged for a closer look

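Hoxb6 was the one Hox probe whose Apcmin effect differed between the organs by a test of the difference itself, at -2.31 ± 0.44 (log2, SE, adjusted p = 0.0325). It read 4.51 and 4.99 in Apcmin colon tumours against 7.30 and 7.12 in wt colon, and 4.43 and 4.93 in Apcmin small intestinal tumours against 4.83 on the 1 wt small intestinal array. The lowest level detected on that array was 4.79. A small intestinal fall could thus not have been seen, and the test cannot show that the Apcmin effect is particular to colon. The smooth muscle sum was 10984 to 12841 in Apcmin colon tumours against 43097 to 44937 in wt colon, and 12353 to 15053 against 20448 in the small intestine, and its part in the difference was not tested.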

How the results depend on the processing

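Of the 34 calls of a Hox probe, 32 kept their direction under every alternative and 14 passed in every run that left out 1 array. Comparisons with wt small intestine had no run without its only array. Among the 14 are the wt organ calls of Hoxb6 and Hoxb9, which rest on that array and passed in 13 runs. Over all 16 arrays with every signal kept, no Hox probe was called: the counts were 0 for the organ comparisons of wt, Apcmin, LIN28B/Apcmin and both tumour genotypes, for the Apcmin interaction, for Apcmin against wt colon and for LIN28B/Apcmin against Apcmin small intestine, and Hoxb6 reversed in the wt organ comparison (-0.38) and the interaction (0.44). With signals under 25 kept, the counts were 3 (wt organ), 1 (LIN28B/Apcmin organ), 0 (interaction) and 0 (LIN28B/Apcmin against Apcmin small intestine). Median scaling gave 0 for the last, offset 50 gave 2 for the interaction, and no detection filter gave 1 (LIN28B/Apcmin organ), 0 (interaction) and 0 (LIN28B/Apcmin against Apcmin small intestine). Averaging arrays of 1 title number gave 0 (interaction) and 2 (LIN28B/Apcmin against Apcmin small intestine). The title number as a replicate block kept all 34 calls, with 4 in the LIN28B/Apcmin organ comparison and 10 over both tumour genotypes. Leaving out 1 array gave 2 to 8 (wt organ), 2 to 9 (Apcmin organ), 1 to 3 (LIN28B/Apcmin organ), 6 to 10 (both tumour genotypes), 0 to 3 (Apcmin interaction), 0 to 1 (LIN28B interaction), 3 to 9 (Apcmin against wt colon), 0 to 1 (LIN28B/Apcmin against Apcmin colon), 0 to 0 (Apcmin against wt small intestine), 0 to 1 (LIN28B against wt small intestine) and 0 to 3 (LIN28B/Apcmin against Apcmin small intestine). An arm left with 1 array was assumed to vary like the other groups. The causes of these shifts were not tested. Probes near background allow only bounds, and the wt small intestine rests on 1 array.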

Other observations

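The 2 arrays left out for low detection detected few Hox probes, at shares no higher than those of all probes. LIN28B/Apcmin colon replicate 4 detected 5 of 50 (10%, against 12% of all probes): Hoxa7 (raw signal 419.5), Hoxd13 (138), Hoxd9 (62.4), Hoxa10 (43.2) and Hoxc12 (41.9). Of the 7 readable colon arrays, 7 detected the Hoxa7 probe, 6 that of Hoxd13, 5 that of Hoxd9, 2 that of Hoxa10 and 0 that of Hoxc12. The wt small intestinal replicate 1 detected 2 (4%, against 5.28% of all probes), Hoxb1 (34.1) and Hoxc11 (33.6), which no readable array detected.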
